A study of Homo sapiens with 6 samples.

Results

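MMP1 and the genes that neighbour it on chromosome 11 encode matrix metalloproteinases (MMPs), and their transcript levels were compared in 231-BR cells and the MDA-MB-231 line. Members were the 9 MMP genes of this locus, MMP1, MMP3, MMP7, MMP8, MMP10, MMP12, MMP13, MMP20 and MMP27, found by their gene symbols. Of these, 7 were among the 17039 genes of the deposited table, and MMP20 and MMP27 had no row there. The locus was picked because MMP1 differed between the lines in these same libraries, so the differences of the members are given as a description, without a test. MDA-MB-231, called parental here, is a human triple-negative breast cancer line, purchased from ATCC and grown in DMEM with serum and antibiotics. 231-BR is its brain-seeking variant, received from another laboratory and grown in the same medium with added G418, a selection drug that the parental cells did not receive. The lines therefore differed in source and in drug as well as in metastatic behaviour, and these cannot be told apart here. Poly(A) RNA from 3 libraries of each line was sequenced. A label for the cell line counts upward from replicate to replicate, and libraries were grouped by their titles. The study describes the 3 libraries of a line as parallel replicates without saying whether they came from separate cultures, so the spread between them may be technical.

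Levels were given as FPKM, a fragment count scaled to transcript length and to the mapped fragments of the library. FPKM carries 2 decimals in the table and no read counts were used, so sequencing depth is unknown. Values after ± are the SD over the 3 libraries of a line. The summed FPKM was 465020 to 472007 in 231-BR cells and 486937 to 496420 in parental cells. VIM, a mesenchymal filament gene, had 2537 to 2566 FPKM in 231-BR cells and 2273 to 2325 FPKM in parental cells, whereas the epithelial cadherin CDH1 stayed at or below 0.03 FPKM in every library. Other epithelial genes were expressed in both lines, with 176 ± 3.23 FPKM of KRT8 against 237 ± 8.13 in parental cells, and 8.70 ± 0.534 FPKM of EPCAM against 5.06 ± 0.552. Of the other genes listed for line identity, KRT18 had 273 ± 3.49 FPKM against 352 ± 14.9, and CD44 had 181 ± 3.95 against 251 ± 2.67. The receptor gene ERBB2 had 9.88 ± 0.316 FPKM against 4.95 ± 0.176, and ESR1 had 0.927 ± 0.133 against 0.79 ± 0.046. PGR did not exceed 0.07 FPKM. Markers of other cell types that can secrete MMPs were low. Of 14 such markers of leukocytes, fibroblasts, endothelium and astrocytes, 11 had a row, and their summed level was 1.23 to 1.35 FPKM in the 231-BR libraries and 0.74 to 0.96 FPKM in the parental libraries. The leukocyte marker PTPRC did not exceed 0.04 FPKM, while LYZ had 0.33 ± 0.085 FPKM in 231-BR cells against 0.437 ± 0.117 in parental cells. CD14 had 0.157 ± 0.11 FPKM against 0.037 ± 0.012, and CSF1R had 0.027 ± 0.012 against 0.103 ± 0.023. The fibroblast marker THY1 did not exceed 0.01 FPKM, and MPO, ELANE and DCN had no row. PDGFRA, a fibroblast marker, had 0.26, 0.25 and 0.24 FPKM in the 231-BR libraries and was listed at 0 in the parental ones, and the endothelial marker PECAM1 had 0.42 ± 0.056 FPKM against 0.183 ± 0.031. Their part in the results was not tested.

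MMPs are zinc-dependent proteases that degrade extracellular matrix. Most are secreted as inactive proenzymes, are activated when other proteases such as plasmin remove the propeptide, and are held in check by the tissue inhibitors of metalloproteinases (TIMPs). The neighbouring genes include the collagenases MMP1, MMP8 and MMP13, which cut the native collagen triple helix, and the stromelysins MMP3 and MMP10, which degrade proteoglycans and fibronectin. Transcription of many of them is known to depend on AP-1 (dimers of FOS and JUN proteins) and on ETS factors, and MMP1 has been linked to metastasis of breast cancer.

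In the GENCODE release 29 annotation of GRCh38 the cluster spans 435227 bases of chromosome 11, from 102520508 to 102955734. All 9 genes lie on the minus strand, in the order MMP7, MMP20, MMP27, MMP8, MMP10, MMP1, MMP3, MMP12 and MMP13 by rising coordinate. MMP1 covers positions 102789920 to 102798160, with 1 annotated transcript of 1970 bases in 10 exons. MMP10 ends 9291 bases before MMP1 starts, and MMP3 starts 37640 bases after MMP1 ends. The transcribed pseudogene WTAPP1 runs over MMP10 and MMP1 on the opposite strand, from 102746968 to 102836766, and 150 of the 1970 exonic bases of MMP1 overlap its exons, as do 32 of the 2048 exonic bases of MMP3. WTAPP1 had no row in the table, and the labels do not say whether the libraries kept strand, so reads of the overlapping bases cannot be assigned to a strand. Of the 1871 windows of 100 bases in the MMP1 transcript, 4 also occur, in either orientation, in a transcript of another gene, which was WTAPP1. MMP3, MMP7, MMP8, MMP10, MMP12 and MMP13 shared none of their windows with a transcript of another gene.

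MMP1, the interstitial collagenase, was by far the most expressed member in both lines. It had 1990, 1975 and 1920 FPKM in the 231-BR libraries and 43.8, 42.9 and 42.3 FPKM in the parental libraries. Each 231-BR library was above each parental library, and within a line the libraries stayed close together. The ratio of the mean FPKM values was 45.6. In bulk RNA, more cells that express a gene and more RNA per cell cannot be told apart. MMP1 was the gene with the 19th or 20th highest FPKM in the 231-BR libraries, against ranks 1878 to 1964 in the parental libraries. Its share of the summed FPKM was 0.418% ± 0.011 in 231-BR cells and 0.0087% ± 0.0002 in parental cells.

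Fold changes were taken from a limma fit of log2(FPKM + 0.1) over the 13465 genes with a mean of at least 0.1 FPKM, and differences on this scale are log2 fold changes of 231-BR over parental cells. Here genes of low FPKM are drawn toward 0. The log2 fold change of MMP1 was 5.51 (standard error 0.023). Among all genes fitted it ranked 39th by log2 fold change. Among the 10548 genes with a mean of at least 1 FPKM in both lines it ranked second.

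**Figure D1:**
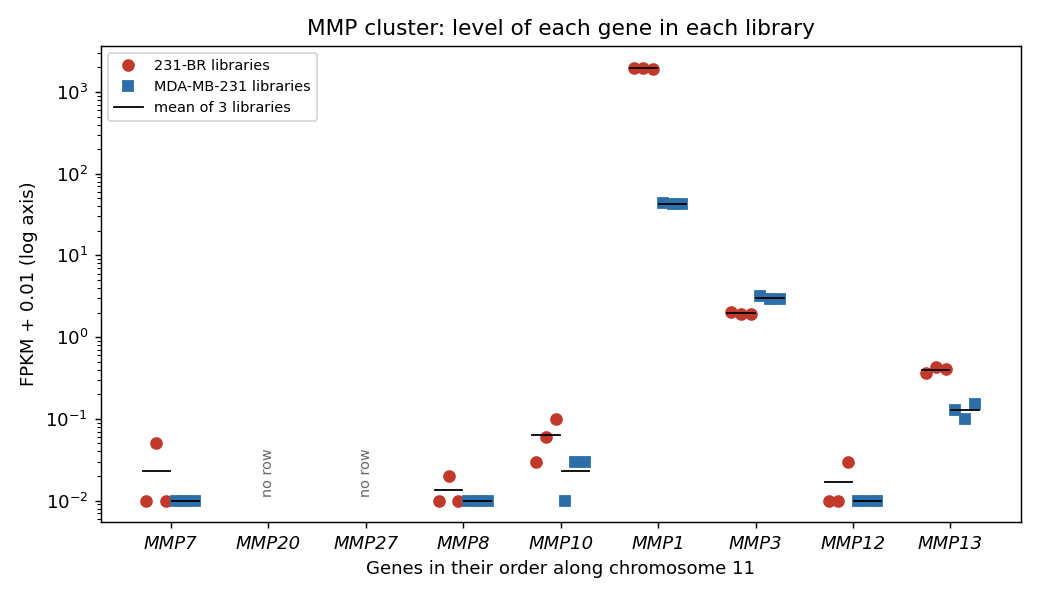
FPKM of each cluster gene in each library, with 0.01 added so that values of 0 can be drawn on the log axis, and genes in chromosomal order. Circles are the 3 231-BR libraries, squares the 3 MDA-MB-231 libraries and bars their means, and MMP1 stands at 1920 to 1990 against 42.3 to 43.8 while MMP7, MMP8, MMP10 and MMP12 lie at or below 0.09 in every library.

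MMP3, stromelysin-1, which can also activate the MMP1 proenzyme, was the second most expressed member and had the opposite direction. Its values were 2.0, 1.93 and 1.92 FPKM in 231-BR cells and 3.19, 2.93 and 2.89 FPKM in parental cells. Each 231-BR library was below each parental library. The mean was 1.54 times as high in parental cells, and the log2 fold change was -0.60 (standard error 0.072). The difference was smaller than a log2 fold change of 1, the size asked of a call elsewhere in the comparison.

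MMP13, collagenase-3, was low in both lines. It had 0.35, 0.42 and 0.40 FPKM in 231-BR cells, against 0.12, 0.09 and 0.14 FPKM in parental cells. The lines did not overlap, and the ratio of the means was 3.34. Its log2 fold change of 1.18 (standard error 0.168) depended on the pseudocount, with 1.67 at a pseudocount of 0.01 and 0.32 at a pseudocount of 1. The libraries thus did not overlap for 3 of the 7 members in the table, 2 of them higher in 231-BR cells and 1 lower. These 3 are all the members that were fitted, and the other 4 lay near 0 FPKM. Over all genes fitted the libraries did not overlap for 78.4%, 44.9% higher in 231-BR cells and 33.5% lower, so a member without overlap was not unusual in this comparison.

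**Figure D2:**
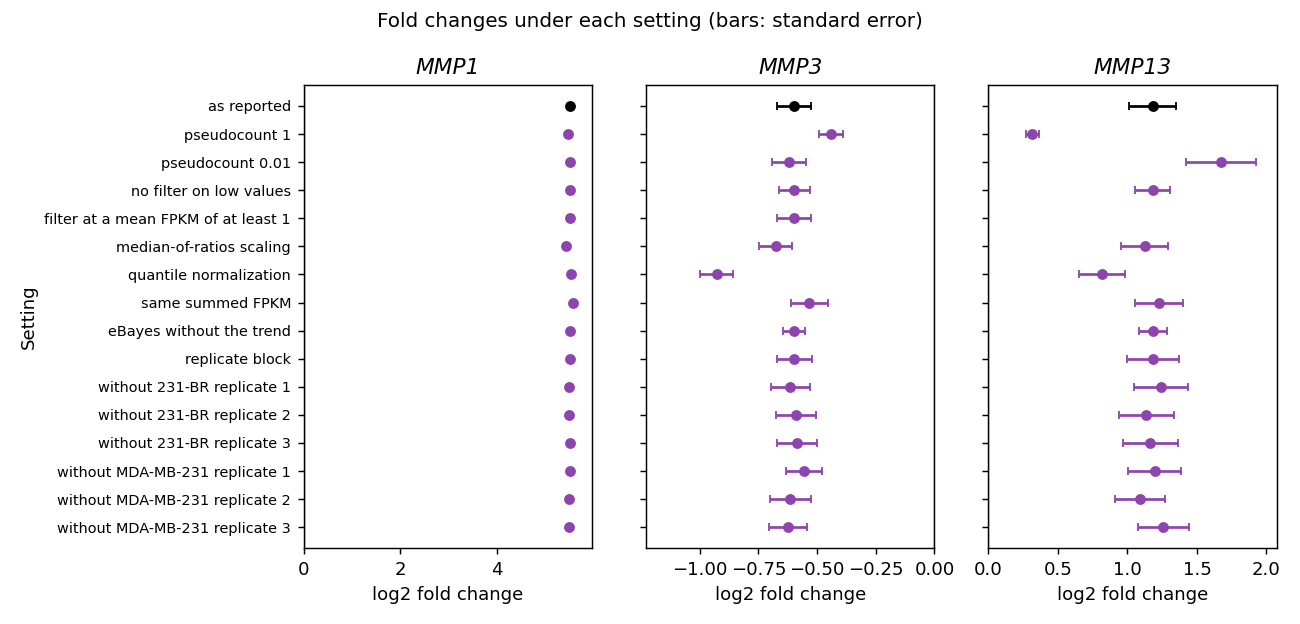
Log2 fold change of MMP1, MMP3 and MMP13, 231-BR over MDA-MB-231, on the horizontal axis of each panel, under the reported setting (black) and each alternative (purple), with the standard error of the fit as bars. MMP13 has no value under the filter at a mean FPKM of 1, which drops it. MMP1 stays between 5.43 and 5.58, MMP3 stays below 0 from -0.93 to -0.44, and MMP13 ranges from 0.32 to 1.67.

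The other 4 members of the table were at or close to 0, had a mean under 0.1 FPKM and were not fitted. MMP10, stromelysin-2, the nearest neighbour of MMP1, had 0.02, 0.05 and 0.09 FPKM in 231-BR cells, against 0, 0.02 and 0.02 FPKM in parental cells, and the lines overlapped. MMP7, matrilysin, was listed at 0.04 FPKM in 231-BR replicate 2. MMP8, the collagenase of neutrophils, was listed at 0.01 FPKM in the same library, and MMP12, the elastase of macrophages, at 0.02 FPKM in 231-BR replicate 3. These 3 genes were listed at 0 in the other libraries, MDA-MB-231 included. The order of the means was MMP1, MMP3, MMP13 and MMP10 in both lines, and no libraries of neighbours in this order overlapped within a line. The means of MMP7, MMP12 and MMP8 in 231-BR cells could not be ordered beyond their spread.

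The promoters of MMP10 and MMP7 are shown. Both genes lie in the cluster of a highly expressed gene and stayed near 0 themselves, as did MMP8 and MMP12. The RefSeq promoter windows used here cover 5 of the 9 members, MMP7, MMP8, MMP10, MMP20 and MMP27. They hold no entry for MMP1, MMP3, MMP12 and MMP13. The 250 bases before the transcription start are given 5′ to 3′ on the strand of the gene, in GRCh38.p14, chr11:102780629-102780878 for MMP10 and chr11:102530748-102530997 for MMP7, both on the minus strand. Capitals mark matches to TGANTCA, a loose form of the AP-1 element, and to TATAAA, the letters of a TATA box. N stands for any base.
MMP10: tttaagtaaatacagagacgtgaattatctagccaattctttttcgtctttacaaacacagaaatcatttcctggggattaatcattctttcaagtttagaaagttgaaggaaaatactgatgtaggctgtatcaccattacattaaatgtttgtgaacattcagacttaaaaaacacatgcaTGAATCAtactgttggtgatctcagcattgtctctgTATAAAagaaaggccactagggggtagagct
MMP7: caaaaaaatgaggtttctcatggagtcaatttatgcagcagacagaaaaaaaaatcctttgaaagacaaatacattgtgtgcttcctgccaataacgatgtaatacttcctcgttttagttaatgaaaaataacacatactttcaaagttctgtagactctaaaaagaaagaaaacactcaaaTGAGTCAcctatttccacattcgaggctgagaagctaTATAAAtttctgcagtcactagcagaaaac
In both windows the TGANTCA match starts at position -67 from the transcription start, and the TATAAA match starts at -31 in MMP10 and at -30 in MMP7. TGANTCA, which reads as the same pattern on either strand, occurs in 6.57% of the 35116 RefSeq promoter windows of the same length, and TATAAA on either strand in 10.7%. Of the 5 member windows, 3 hold TGANTCA, the third being that of MMP20, where TGANTCA starts at -112 and TATAAA at -72. The window of MMP8, another member near 0, holds no TGANTCA, and its TATAAA match starts at -110. The window of MMP27 holds neither pattern. The layout shared by MMP10 and MMP7 is thus not that of every window. A match describes the letters of the window and does not show that a factor binds there.

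MMP1 made up nearly the whole output of the cluster in 231-BR cells. Summed over the 7 genes, FPKM reached 1964 ± 37.2 in 231-BR cells against 46.1 ± 0.864 in parental cells, and without MMP1 it was 2.42 ± 0.042 and 3.13 ± 0.153. The share of MMP1 in this sum was 99.9% in the 231-BR libraries and 93.0% to 93.4% in the parental libraries. The ratio of MMP1 to MMP3 was 1006 ± 14.9 in 231-BR cells and 14.3 ± 0.534 in parental cells. These are ratios of FPKM, which is scaled to transcript length.

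Among the MMPs outside the cluster, MMP14, a collagenase anchored in the membrane, was the most expressed. It had 98.5, 98.0 and 97.3 FPKM in 231-BR cells, against 100.1, 100.5 and 106 FPKM in parental cells. Its log2 fold change was -0.06 (standard error 0.027, adjusted p = 0.06 from limma), which is not past the test. It was 0.01 when the libraries were scaled to the same summed FPKM, -0.14 (limma adjusted p = 0.000814) after median-of-ratios scaling and -0.08 (limma adjusted p = 0.0365) without MDA-MB-231 replicate 1. MMP1 was thus 20.03 ± 0.262 times MMP14 in 231-BR cells and 0.421 ± 0.019 times in parental cells. Over the 20 MMP genes of the table, MMP1 held 94.9% to 95.0% of the summed FPKM in the 231-BR libraries and 27.4% to 29.1% in the parental libraries.

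For genes that are not members, a call asked for an adjusted p under 0.05 (limma, Benjamini-Hochberg over all 13465 genes) and an absolute log2 fold change over 1. Over all genes fitted, 15.2% were called, 10.9% higher and 4.34% lower in 231-BR cells, and the median log2 fold change was 0.08. Of the 14 other MMP genes listed, 13 had a row and 7 were fitted, with 1 called higher and none lower, and a median log2 fold change of 0.09. The called gene was MMP11, stromelysin-3, which rose from 0.147 ± 0.045 to 0.42 ± 0.102 FPKM (log2 difference 1.07, limma adjusted p = 0.00078). The call was lost without 231-BR replicate 1 (0.93), without MDA-MB-231 replicate 3 (0.93), with a pseudocount of 1 (0.31) and after quantile normalization (0.71). MMP15, a membrane-anchored MMP, had 2.31 ± 0.123 FPKM against 1.38 ± 0.031, or 0.71 on the log2 scale, which was short of a call. The gelatinase MMP9 had the lowest log2 fold change of the list, -0.42 (standard error 0.234, adjusted p = 0.13), at 0.08 FPKM in 231-BR cells. MMP2, the other gelatinase, did not exceed 0.01 FPKM in any library. MMP17, a further membrane-anchored MMP, had means of 0.0067 and 0.183 FPKM and was not fitted, while it passed as lower without the filter (log2 difference -1.39) and when any 231-BR library was left out (-1.48 to -1.34).

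**Figure D3:**
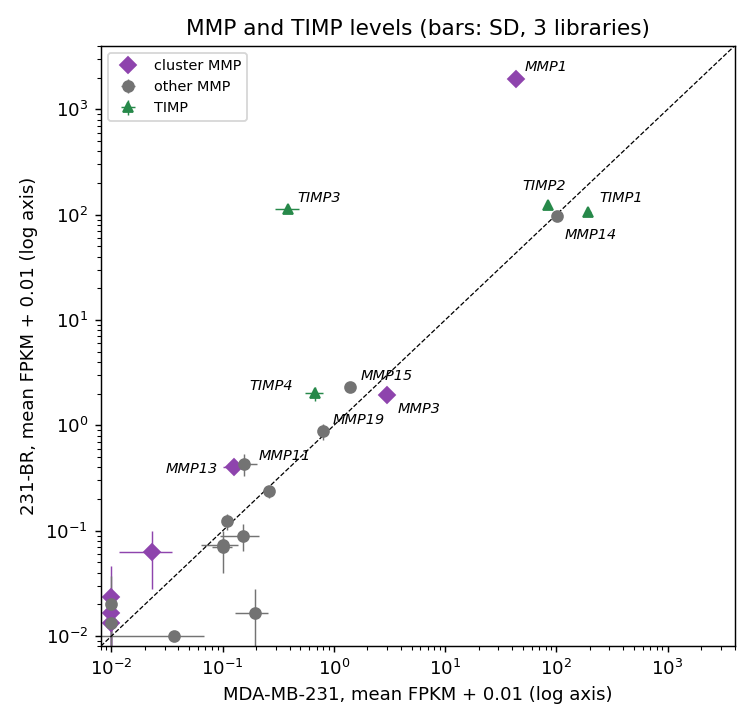
Mean FPKM plus 0.01 in parental cells (horizontal) against 231-BR cells (vertical), both on log axes, for the MMPs of the cluster (diamonds), other MMPs (circles) and TIMPs (triangles), with the SD over 3 libraries as bars and equality as the dashed line. MMP1 and TIMP3 stand far above the line, and MMP14, at 97.9 against 102.2, lies on it.

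The inhibitors that oppose MMP1 differed in their directions. Of 6 genes listed, 5 were fitted, 2 were called higher and 0 lower, with a median log2 fold change of 0.56. The share called over all genes fitted was 10.9% higher and 4.34% lower. At an adjusted p under 0.05 alone, 4 inhibitors were higher and 1 lower. Of the 13465 genes fitted, 77.3% had such a p, 5973 of them higher and 4433 lower. TIMP3, the inhibitor that binds to the matrix, had 113, 112 and 114 FPKM in 231-BR cells, against 0.45, 0.42 and 0.27 FPKM in parental cells. It rose, with 7.90 on the log2 scale (SE 0.123, limma adjusted p = 1.8e-11). TIMP4 rose from 0.663 ± 0.12 to 2.0 ± 0.32 FPKM, or 1.46 on the log2 scale, which fell to 0.85 and lost its call at a pseudocount of 1. TIMP1, the secreted inhibitor with the highest level in parental cells, had 105 ± 3.36 FPKM in 231-BR cells, against 193 ± 10.5 FPKM in parental cells, or -0.88 on the log2 scale, which was short of a call. TIMP2 had 124 ± 1.22 FPKM against 84.4 ± 0.99, or 0.56 on the log2 scale.

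Summed over the 4 TIMP genes, the level was 344 ± 1.76 FPKM in 231-BR cells and 279 ± 10.5 FPKM in parental cells. MMP1 was 5.79, 5.70 and 5.596 times this sum in the 231-BR libraries and 0.160, 0.158 and 0.146 times in the parental libraries. MMP14 was 0.284 ± 0.002 times the sum in 231-BR cells and 0.367 ± 0.0025 times in parental cells. These ratios compare transcripts and not proteins.

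Genes that govern the activation of MMP proenzymes through plasmin and related proteases moved in both directions. Of 10 listed, 7 were fitted, 1 was called higher and 2 lower, with a median log2 fold change of -0.10. The share called over all genes fitted was 10.9% higher and 4.34% lower. PLAT, the tissue-type plasminogen activator, rose from 6.76 ± 0.445 to 27.2 ± 0.478 FPKM (log2 difference 2.0, SE 0.049, limma adjusted p = 2.7e-10). SERPINB2, an inhibitor of plasminogen activators, fell from 244, 246 and 231 FPKM in parental cells to 28.0, 28.0 and 29.2 FPKM in 231-BR cells (log2 difference -3.08, SE 0.032, limma adjusted p = 2.2e-12). FURIN, a convertase that activates membrane MMPs, fell from 22.6 ± 0.165 to 7.21 ± 0.204 FPKM, or -1.63 on the log2 scale. The urokinase gene PLAU and its receptor PLAUR had log2 fold changes of 0.52 and -0.54, both short of a call. ST14, matriptase, had 0.163 ± 0.038 FPKM against 0.037 ± 0.029 in parental cells, or 0.96 on the log2 scale, short of a call. It passed as higher without MDA-MB-231 replicate 3 (1.12) and at a pseudocount of 0.01 (2.03). It was 0.17 at a pseudocount of 1 and 0.59 after quantile normalization. The filter dropped ST14 after median-of-ratios scaling and when any 231-BR library was left out. Its parental values lie below the pseudocount of 0.1, so the size of this difference depends on the pseudocount. PLG, which encodes plasminogen itself, did not exceed 0.03 FPKM.

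Of 11 AP-1 subunits listed, 10 were fitted, 3 were called higher and 0 lower, with a median log2 fold change of 0.52. Over all genes fitted, 10.9% were called higher and 4.34% lower. At an adjusted p under 0.05 alone, 8 AP-1 subunits were higher and 2 lower. Of the 13465 genes fitted, 77.3% had such a p, 5973 of them higher and 4433 lower. JUND had 29.1, 33.2 and 32.0 FPKM in 231-BR cells, against 6.34, 6.05 and 7.03 FPKM in parental cells, and rose, with 2.26 on the log2 scale (SE 0.064, limma adjusted p = 7.2e-10). FOSB and BATF2, also called higher, reached 0.503 ± 0.076 and 0.5 ± 0.155 FPKM in 231-BR cells, and both calls were lost at a pseudocount of 1, as was that of FOSB after quantile normalization (0.97). FOSL1 and JUN, the subunits with the highest FPKM, were not called. FOSL1, which is abundant in invasive breast cancer lines, had 406 ± 8.86 FPKM in 231-BR cells, against 536 ± 14.3 FPKM in parental cells, or -0.40 on the log2 scale. JUN had 67.7 ± 1.06 FPKM against 62.3 ± 1.87, or 0.12 on the log2 scale, and FOSL2 had the lowest of the list, -0.80.

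Of 11 ETS factors listed, 8 were fitted, 0 were called higher and 1 lower, with a median log2 fold change of 0.12. The share called over all genes fitted was 10.9% higher and 4.34% lower. The called gene was ETS2, which fell from 22.2 ± 0.499 to 9.96 ± 0.444 FPKM (log2 difference -1.15, limma adjusted p = 4e-09). ETS1, the most expressed of them, had 103 ± 0.832 FPKM against 87.7 ± 2.32, or 0.24 on the log2 scale. ELK4 had the highest log2 fold change, 0.65, and the members of the PEA3 group, which is known to drive MMP genes, stood at 0.39 for ETV1, -0.31 for ETV4 and 0.01 for ETV5.

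**Figure D4:**
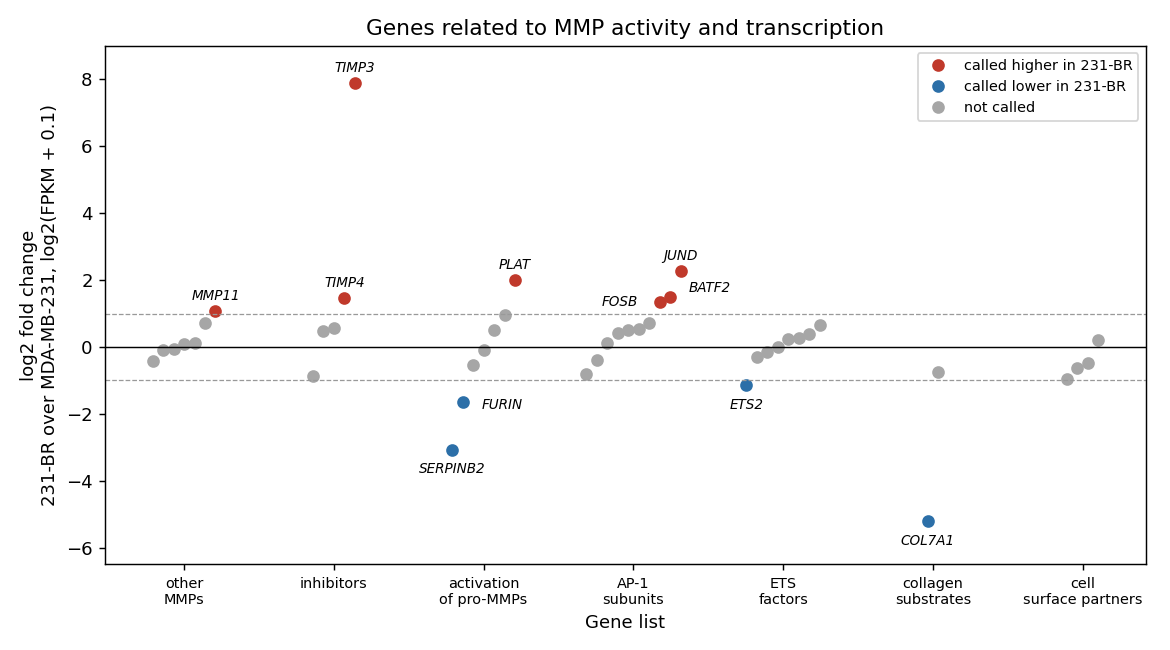
Log2 fold change of each fitted gene, 231-BR over MDA-MB-231, for 7 lists of genes related to the activity and transcription of MMPs, with the call thresholds of 1 and -1 dashed. Red genes were called higher in 231-BR cells, blue genes lower and grey genes were not called, and TIMP3 at 7.90 and COL7A1 at -5.21 are the farthest from 0.

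Of 6 genes for collagens that interstitial collagenase cleaves, 2 were fitted, 0 were called higher and 1 lower. The share called over all genes fitted was 10.9% higher and 4.34% lower. COL7A1, the chain of the anchoring fibrils of epithelial basement membranes, had 0.47, 0.50 and 0.42 FPKM in 231-BR cells, against 20.1, 20.4 and 21.9 FPKM in parental cells. It fell, with -5.21 on the log2 scale (SE 0.074, limma adjusted p = 1e-11). COL1A1 had 0.517 ± 0.029 FPKM against 0.93 ± 0.05, or -0.74 on the log2 scale, which was short of a call and passed as lower after quantile normalization (-1.17). COL1A2 and COL3A1 did not exceed 0.02 FPKM. The libraries thus held little transcript of the fibrillar collagens that MMP1 is best known for cutting.

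None of the 4 cell surface partners of MMP1 was called in either direction, with a median log2 fold change of -0.56. The share called over all genes fitted was 15.2%. All 4 had an adjusted p under 0.05, as did 77.3% of all genes fitted. F2R, the thrombin receptor that MMP1 can cleave, had 16.8 ± 0.388 FPKM in 231-BR cells, against 14.6 ± 0.414 FPKM in parental cells, or 0.20 on the log2 scale. BSG, which encodes an inducer of MMP synthesis, had 287 ± 7.64 FPKM against 403 ± 13.8, or -0.49 on the log2 scale. ITGA2 and ITGB1, whose integrin binds collagen and the MMP1 proenzyme, had log2 fold changes of -0.62 and -0.96. After median-of-ratios scaling ITGB1 reached -1.04 and passed as lower.

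The genes on either side of the cluster that could be fitted had smaller log2 fold changes than MMP1. The 10 nearest genes of the table before MMP7 and the 10 after MMP13 were taken from the RefSeq gene order, and 13 of the 20 were fitted. Of these, 7 were called higher and 1 lower in 231-BR cells, with a median log2 fold change of 1.00, and 11 were above 0 and 2 below. Over all genes fitted, 10.9% were called higher and 4.34% lower, with a median of 0.08. With a pseudocount of 1, 4 of the flanking genes were called higher. Of the 7 fitted genes before MMP7, 2 were called higher and 1 lower, with a median of 0.34. Of the 6 after MMP13, 5 were called higher and 0 lower, with a median of 1.52. The closest flanking genes that could be fitted had small values, 0.13 for TMEM123 next to MMP7 and 0.22 for DCUN1D5 next to MMP13. TMEM123 had 205 ± 3.90 FPKM in 231-BR cells, against 187 ± 9.04 FPKM in parental cells. BIRC3 and BIRC2, apoptosis inhibitors that respond to NF-kB signalling or take part in it, stood at -1.63 and -0.58 on the log2 scale, and the former was the 1 gene called lower, at 3.89 ± 0.078 FPKM against 12.3 ± 0.382. CARD16, a regulator of caspase-1, was called higher at 2.99 (SE 0.161), with 3.49 ± 0.18 FPKM against 0.36 ± 0.104. CFAP300, a cilia gene, was called higher at 2.95 (SE 0.21), with 1.38 ± 0.085 FPKM against 0.097 ± 0.06. The log2 fold changes of CARD16 and CFAP300 differ by less than their standard errors. The parental values of CFAP300, 0.09, 0.16 and 0.04 FPKM, lie around the pseudocount of 0.1, so the size of its log2 fold change depends on the pseudocount. CASP4, an inflammatory caspase, rose from 63.8 ± 1.40 to 148 ± 1.01 FPKM (log2 difference 1.21, limma adjusted p = 6.8e-11). The 13 fitted flanking genes lay between -1.63 and 2.99, against 5.51 for MMP1. The other 7 did not exceed 0.07 FPKM in any library and have no log2 fold change. The difference between MMP1 and its neighbours was not tested, since MMP1 was chosen for its size.

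**Figure D5:**
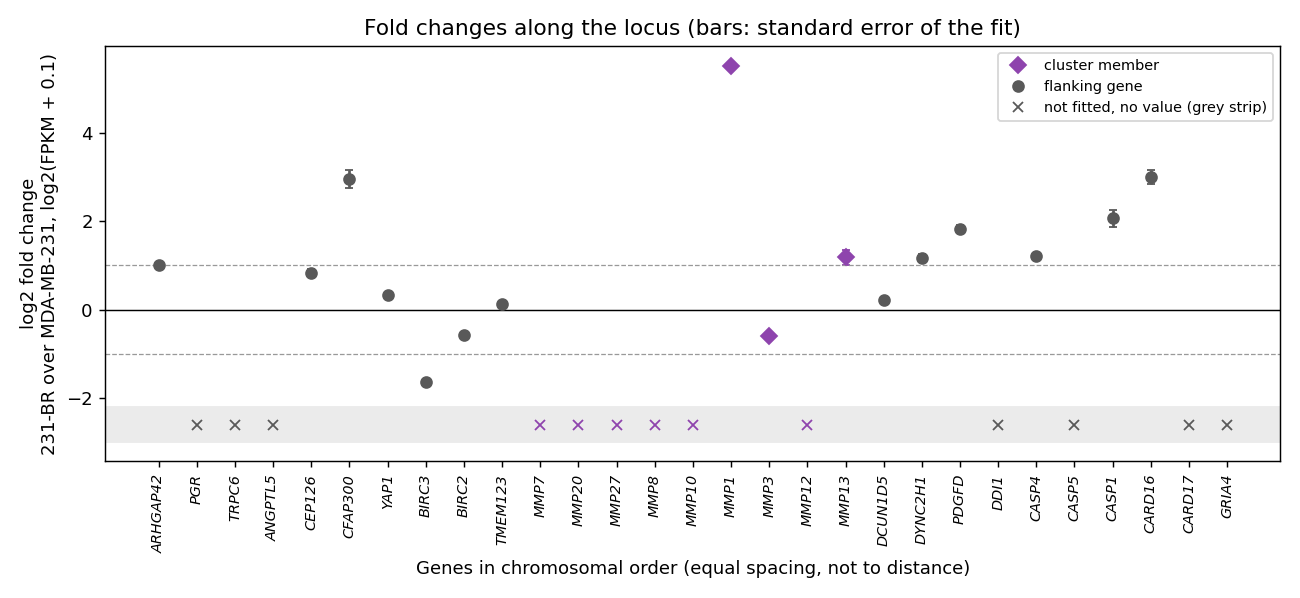
Log2 fold change of the cluster genes (diamonds) and of the 10 nearest genes of the table on either side (circles), in chromosomal order at equal spacing, with the standard error as bars and dashed lines at 1 and -1. MMP1 stands at 5.51 between MMP10, which could not be fitted, and MMP3 at -0.60, and crosses in the grey strip have no value.

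Genes with a profile most like that of MMP1 were found by the Euclidean distance between log2(FPKM + 0.1) values, centred for each gene, over the 6 libraries. The nearest were SGCZ, a sarcoglycan gene, at a distance of 0.116, GALNT5, a mucin-type glycosyltransferase gene, at 0.143, SLITRK2, at 0.152, the mucin gene MUC15, at 0.156, and TGIF2LX, at 0.27. Their levels were far below that of MMP1, with 4.74 ± 0.142 FPKM of SGCZ and 5.77 ± 0.166 FPKM of GALNT5 in 231-BR cells. In parental cells SGCZ and GALNT5 did not exceed 0.03 FPKM, and SLITRK2, MUC15 and TGIF2LX were listed at 0. These parental values lie below the pseudocount of 0.1, which therefore sets the size of their log2 differences, so the short distances do not show that their ratios resemble that of MMP1. When the ranking was limited to genes whose mean reached 1 FPKM in both lines, a choice made after these values were seen, the nearest were SPANXB1 at 0.384, KRT19 at 0.759 and FST at 1.03. The distance rests on 6 libraries in 2 groups and so mostly measures the size of the difference between the lines.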

How the data were processed

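RNA from 3 libraries of 231-BR and 3 of MDA-MB-231 cells was sequenced on BGISEQ-500. The authors filtered reads with SOAPnuke and aligned them with HISAT2 2.0.4 to the genome (GRCh38.p12 in the submitters' processing notes) and with Bowtie2 2.2.5 to a gene set, and deposited FPKM per gene. The program that computed FPKM and the annotation release are not given in the sources used here. The 6 files of single libraries held the same values as the table of the series. Read counts were not used here, so the precision rests on the spread between libraries.

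log2(FPKM + 0.1) was fitted with limma 3.58.1 in R 4.3.3 (lmFit, eBayes with trend, a term for the line) for genes whose mean reached 0.1 FPKM, and checked on simulated data. The members, lists and rules for naming genes were chosen with earlier results of these data known. Named genes were the members, genes of the 8 lists (with the highest and lowest log2 fold change of each), the cell type markers and the 5 genes most like MMP1. 1 gene of the planned lists is not reported here and was left out of their counts. Alternatives were other pseudocounts, filters and scalings, eBayes without the trend, a replicate block and leaving out each library. Gene order came from RefSeq (GRCh38.p14), and windows of transcripts and coordinates from GENCODE release 29. Figures were drawn with Python 3.11.15 and matplotlib 3.10.9.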

Additional observations from a re-analysis of the deposited data

How the results depend on the processing

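Direction did not turn for MMP1, MMP3 or MMP13 under any alternative in which they were fitted. MMP13 was not fitted with the filter at a mean FPKM of 1. The log2 fold change of MMP1 was 5.48 with a pseudocount of 1, 5.43 after median-of-ratios scaling and 5.58 at the same summed FPKM, and 5.50 to 5.52 with single libraries left out. Over all genes 1467 were called higher and 584 lower, against 720 and 277 with a pseudocount of 1 and 949 and 345 with a filter at a mean FPKM of 1, which tests fewer genes. After quantile normalization 947 were lower and 52.8% of the called genes were higher, against 71.5% as reported, while the median over all genes moved from 0.08 to -0.06 (log2). Of the genes of the related lists, 14 were called higher and 5 lower, against 7 higher with a pseudocount of 1 and 9 with the filter at 1. With single libraries left out, 1441 to 1502 genes were higher and 576 to 611 lower. ETV5, at a log2 fold change of 0.01, was at -0.0747 after median-of-ratios scaling, -0.0322 after quantile normalization and -0.0185 without 231-BR replicate 1, within -0.0185 to 0.0328 over the libraries left out, and MMP14 was at 0.0058 at the same summed FPKM. The cause of these shifts was not tested. No pairing of the libraries by replicate number was visible. Deviations of libraries with the same number correlated at 0.087, -0.04 and -0.106 over 11124 genes, and those with different numbers at -0.154 to 0.183. With 3 libraries per line these values cannot show that the libraries were unpaired. With a replicate block 1468 genes were called higher and 585 lower, the log2 fold change of MMP1 was 5.51, and the block changed no call named here. Depth is unknown, so values of a few hundredths of an FPKM cannot be told from 0.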
